A study of Mus musculus with 8 samples.

Results

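The enzymes of oxidative phosphorylation were measured here through 72 nuclear genes of mouse testis, out of 8251 genes that had a probe set with a single gene symbol on the array. Members were taken by symbol: every gene whose name starts with Nduf, Uqcr, Atp5 or Cox4 to Cox8, together with Sdha, Sdhb, Sdhc, Sdhd and Cyc1. They held 100 of the 12488 probe sets. Each gene was represented by its brightest probe set, by the mean over all arrays. The symbols gave 31 genes of complex I, 4 of complex II, 8 of complex III, 15 of complex IV and 14 of complex V. The choice used names only and no measured difference between genotypes. The rule by name also takes in Ndufaf1 and Ndufaf4, which help to assemble complex I, and Cox7a2l, which helps to join complexes III and IV.

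Total RNA from testis had been hybridised to 8 arrays of the Affymetrix type MG_U74Av2, with 4 genotypes and 2 arrays each. Wild type mice were Ku86(+/+);Terc(+/+), and Terc knockout mice were Ku86(+/+);G3-Terc(-/-), where G3 marks generation 3 without the RNA template of telomerase. Ku86 knockout mice were Ku86(-/-);Terc(+/+), lacking the Ku86 subunit of the DNA end-binding Ku complex, and double knockout mice were Ku86(-/-);G3-Terc(-/-). The labels write both losses as (-/-); strain, age and the making of the alleles are not stated in the sources used. In the text records of the scanner the samples are named germ cells, where the labels say testis. Those records describe double knockout replicate 1 as a pool of 3 mice and wild type replicate 1 as a repeated hybridisation. The sources used here do not say whether the other arrays came from separate animals, so the p-values measure the spread between these arrays, which may be technical.

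All 16 spermatid markers measured, among them the protamine gene Prm1 and the transition protein gene Tnp2, passed the filter on dim values, and so did all 16 Sertoli cell markers measured. Correlations between arrays lay between 0.91 and 0.96. The arrays had been scanned on 3 days, and the chip lot changed with the day. Wild type replicate 1 alone was scanned on day 3, Ku86 knockout replicate 1 and double knockout replicate 1 on day 1, and the other 5 arrays on day 2, which held every genotype. Wild type replicate 1 had the lowest median signal, 49.7 against 59.4 to 73.2 on the other arrays, and the largest share of probe sets at or under the floor set for dim values, 26% against 15.6% to 22.6%. Terc had no probe set. The tested probe set of Xrcc5, the gene of Ku86, gave 46.3 and 75.6 in wild type, 71.2 and 11.1 in Terc knockout, 419.9 and 459 in Ku86 knockout, and 259 and 423 in double knockout. It was brighter on all 4 arrays labelled as lacking Ku86 than on the other 4, which goes against those labels. Where its probes lie relative to the deleted part was not examined here, and probes outside it would check nothing. Every direction given below for Ku86 loss therefore concerns arrays labelled Ku86 knockout or double knockout.

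Oxidative phosphorylation makes most of the ATP of respiring cells. Complexes I and II take electrons from NADH and succinate, complex III passes them to cytochrome c, complex IV gives them to oxygen, and complex V, the ATP synthase, uses the proton gradient that complexes I, III and IV build. In the testis, germ cells change their mitochondria and their fuels as they mature. Several subunits have a testis form, such as Cox6b2 and Cox8c of complex IV, and so does the carrier cytochrome c (Cyct).

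Promoters of the nuclear genes for these subunits are known for sites of NRF1, of ETS factors such as GABP, and of YY1, so their sequences were searched. RefSeq promoter windows of GRCm38.p6, running from 250 bases before to 50 after the start, were matched for 58 of the 72 genes. Exact matches on either strand were counted for the NRF1 core (the 10 letters of the first stretch of capitals in Cox6a1 below), CCGGAAG (ETS), AAGATGGC (YY1) and TGACGTCA (CRE). The NRF1 letters occurred in 5 of 58 genes (8.62%), against 1.07% of all genes with a window and 1.93% of those on the array. The ETS letters were found in 16 of 58 (27.6%), against 9.93% and 17.1%, and the YY1 letters in 8 of 58 (13.8%), against 3.19% and 4.61%. CRE letters stood in 2 of 58 (3.45%), against 2.03% and 3.16%. The median GC content was 58.7% in the members' windows, 52.7% in all windows and 59.7% in those of genes on the array. YY1 letters were found in complex I (5 of 28 genes) and complex V (3 of 12) and in 0 of the 3, 4 and 11 genes of complexes II, III and IV. A match is a description of the letters and not a measured site. The following 280 bases (250 before and 30 after the start, minus strand of GRCm38.p6) are shown for 3 genes picked after their values and matches were known: Cox6a1 (chr5:115348929-115349208), which has both an NRF1 and an ETS match, Atp5md (chr19:47090618-47090897), whose signal separated the arrays by Ku86 label, and Cox6b2 (chr7:4753065-4753344), the testis form of its subunit, which has none. Capitals mark the matches.
Cox6a1: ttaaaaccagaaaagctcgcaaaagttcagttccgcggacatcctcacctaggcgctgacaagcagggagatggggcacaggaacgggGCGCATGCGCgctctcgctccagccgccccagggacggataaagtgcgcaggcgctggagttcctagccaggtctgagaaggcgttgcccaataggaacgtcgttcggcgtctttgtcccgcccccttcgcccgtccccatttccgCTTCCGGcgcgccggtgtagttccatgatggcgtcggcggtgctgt
Atp5md: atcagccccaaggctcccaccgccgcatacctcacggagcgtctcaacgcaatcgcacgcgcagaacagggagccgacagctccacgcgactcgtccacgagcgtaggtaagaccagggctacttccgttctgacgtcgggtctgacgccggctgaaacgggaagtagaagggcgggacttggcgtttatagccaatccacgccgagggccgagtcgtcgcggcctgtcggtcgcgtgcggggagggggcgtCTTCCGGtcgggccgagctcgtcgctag
Cox6b2: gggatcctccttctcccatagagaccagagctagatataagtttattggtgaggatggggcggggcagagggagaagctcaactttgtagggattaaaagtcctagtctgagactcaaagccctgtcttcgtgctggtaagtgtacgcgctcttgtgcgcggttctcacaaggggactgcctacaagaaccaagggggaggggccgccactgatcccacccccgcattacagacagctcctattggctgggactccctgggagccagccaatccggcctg

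Across all complexes, no tested member was called in any comparison. The linear model in limma was fitted to log2 signals of the 7282 probe sets that passed a filter on dim values, and calls were made at an adjusted p (Benjamini-Hochberg, over all of these) under 0.05. Of the 72 members, 64 passed the filter: 28 of 31 in complex I, 3 of 4 in complex II, 8 of 8 in complex III, 11 of 15 in complex IV and 14 of 14 in complex V. Against wild type, 0 of 64 were called in Terc knockout, where 0.0275% of all tested probe sets were called, 0 in Ku86 knockout (0.0412% of all) and 0 in double knockout (0.0275% of all). The effect of Terc loss averaged over both Ku86 genotypes called 0 members (0.0137% of all), and the averaged effect of Ku86 loss, the interaction and the F-test for any difference among genotypes called 0 members and 0% of all. At an unadjusted p under 0.05, limma gave 1 member lower for the averaged Terc effect (4.22% of all probe sets higher, 1.07% lower), 5 lower for the averaged Ku86 effect (3.45% higher, 1.7% lower), 1 higher for the interaction (1.62% higher, 3.42% lower) and 2 for the F-test (5.01%). At the same level it gave 3 members in Terc knockout (1 higher, 2 lower), 6 in Ku86 knockout (0 higher, 6 lower) and 5 in double knockout (0 higher, 5 lower). The shares of all tested probe sets at that level were 4.9% higher and 2.16% lower in Terc knockout, 3.72% and 2.18% in Ku86 knockout, and 6.34% and 2.25% in double knockout. The lowest adjusted p of any member was 0.257, for Cox6c in double knockout. With 2 arrays a genotype, the median standard error of a member's difference from wild type was 0.22 on the log2 scale.

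The 64 tested members had a lower median difference than the array as a whole in every knockout genotype, except that quantile normalization turned this in Terc knockout. Their median log2 difference from wild type was -0.02 in Terc knockout, -0.17 in Ku86 knockout and -0.11 in double knockout, beside medians of 0.11, 0.10 and 0.08 over all probe sets tested. In Terc knockout 28 members had a fitted difference above 0 and 36 below, in Ku86 knockout 20 and 44, and in double knockout 24 and 40. Over all tested probe sets the share above 0 was 61.1%, 59.7% and 58.7%, and the share below 0 was 38.9%, 40.3% and 41.3%. Both knockout arrays were below both wild type arrays for 14 members in Terc knockout (21.9%), 25 in Ku86 knockout (39.1%) and 15 in double knockout (23.4%), against 12.2%, 13.7% and 13.2% of all probe sets. Both were above both for 7, 3 and 2 members (10.9%, 4.69% and 3.12%), against 25.5%, 24.4% and 23.2%. The 3 comparisons share the wild type arrays and are not independent of each other. All 4 arrays labelled as lacking Ku86 were below all 4 others for 5 members, Ndufa2, Ndufb2, Sdhb, Uqcrq and Atp5md (7.81%, against 1.46% of all probe sets), and above them for 0 members (1.68% of all). The only arrays of scan day 1, Ku86 knockout replicate 1 and double knockout replicate 1, are both among the 4 labelled as lacking Ku86. Label and scan day therefore cannot be fully told apart here. Those arrays were the lowest pair for Ndufa2, Ndufb2 and Uqcrq, but not for Sdhb and Atp5md. No member separated the 4 arrays without Terc from the other 4 in either direction, where 1.55% of all probe sets were higher and 0.714% lower.

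The size of these differences depended on the scaling of the arrays. The values were kept on the authors' scale, and setting each array's median level instead moved the median of all probe sets to -0.23, -0.14 and -0.19 in Terc knockout, Ku86 knockout and double knockout. The split of members then became 4 above and 60 below 0, 5 and 59, and 5 and 59. The members lay -0.12, -0.27 and -0.19 from the median of all probe sets, a distance that a constant per array cannot change. After quantile normalization, which gives every array the same distribution, 35 members were above and 29 below 0 in Terc knockout, 21 and 43 in Ku86 knockout, and 23 and 41 in double knockout. The distance was then 0.02, -0.09 and -0.05, so the direction in Terc knockout turned and the distance in Ku86 knockout and double knockout was smaller. With the filter at the 60th percentile it was -0.0716, -0.215 and -0.16 over 59 members. A floor at the 40th percentile gave -0.00687, -0.123 and -0.0824 over 72 members, so little was left in Terc knockout. Members had a higher median signal than all tested probe sets, and the part of brightness in this distance was not tested. Within scan day 2 alone the members' medians were -0.06, -0.16 and -0.10. The median for Terc knockout was -0.0633 without wild type replicate 1, -0.0321 without wild type replicate 2, -0.0744 without Terc knockout replicate 1 and -0.0322 without Terc knockout replicate 2, so any of these arrays moved it. Without wild type replicate 2 the median for Ku86 knockout was -0.113, and without double knockout replicate 2 that for double knockout was -0.174.

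**Figure D1:**
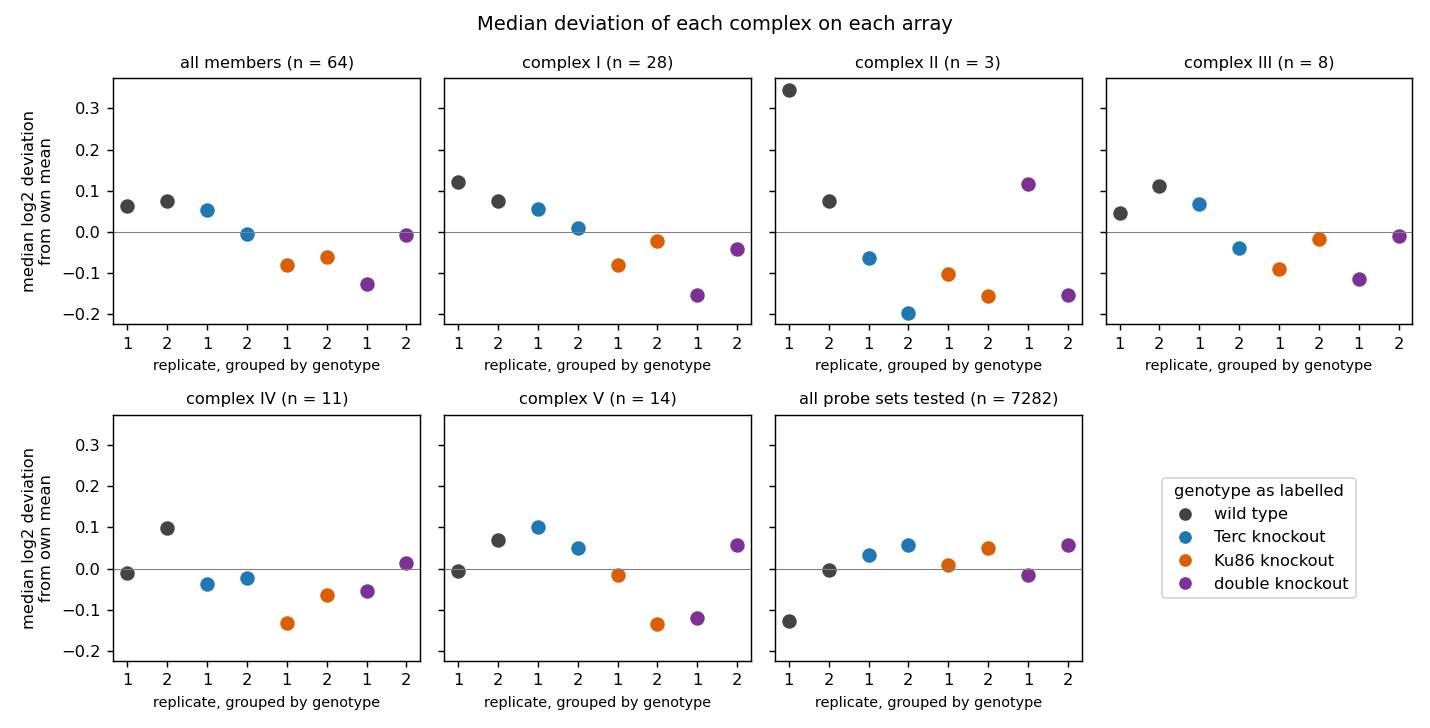
Median over the tested genes of each complex, and over all 7282 tested probe sets, of the log2 signal minus the gene's own mean over 8 arrays; each point is 1 array, coloured by labelled genotype. Over all tested members the wild type arrays lie at 0.06 and 0.08 and every knockout array lies lower. Terc knockout arrays are at 0.05 and -0.004, Ku86 knockout at -0.08 and -0.06, and double knockout at -0.13 and -0.01. Over all probe sets wild type replicate 1 is the lowest array at -0.13.

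Array by array, the median deviation of the members from their own means was 0.06 and 0.08 in wild type, 0.05 and 0.00 in Terc knockout, -0.08 and -0.06 in Ku86 knockout, and -0.13 and -0.01 in double knockout. The pooled spread between arrays of a genotype was 0.05. Every knockout array lay below both wild type arrays, Terc knockout replicate 1 narrowly, at 0.054 against 0.063 in wild type replicate 1. The double knockout pair differed by more than that spread, and so did the Terc knockout pair, at 0.054 and -0.004 beside 0.047. That spread is an SD of single arrays, to which both pairs contribute. Double knockout replicate 1, the pooled sample, was the lowest array, and replicate 2 lay close to the second Terc knockout array. Members varied less than the array as a whole: the highest array was under 1.5-fold above the lowest for 27 of 64 members (42.2%), against 18.6% of all tested probe sets. The median SD over the 8 arrays was 0.22 for members and 0.31 for all probe sets, on the log2 scale. The median of the mean signals was 1001 for members and 172 for all tested probe sets, and the part of brightness in this difference was not tested. Among the members the SD ran from 0.08 for Sdhb to 0.64 for Ndufa10.

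**Figure D2:**
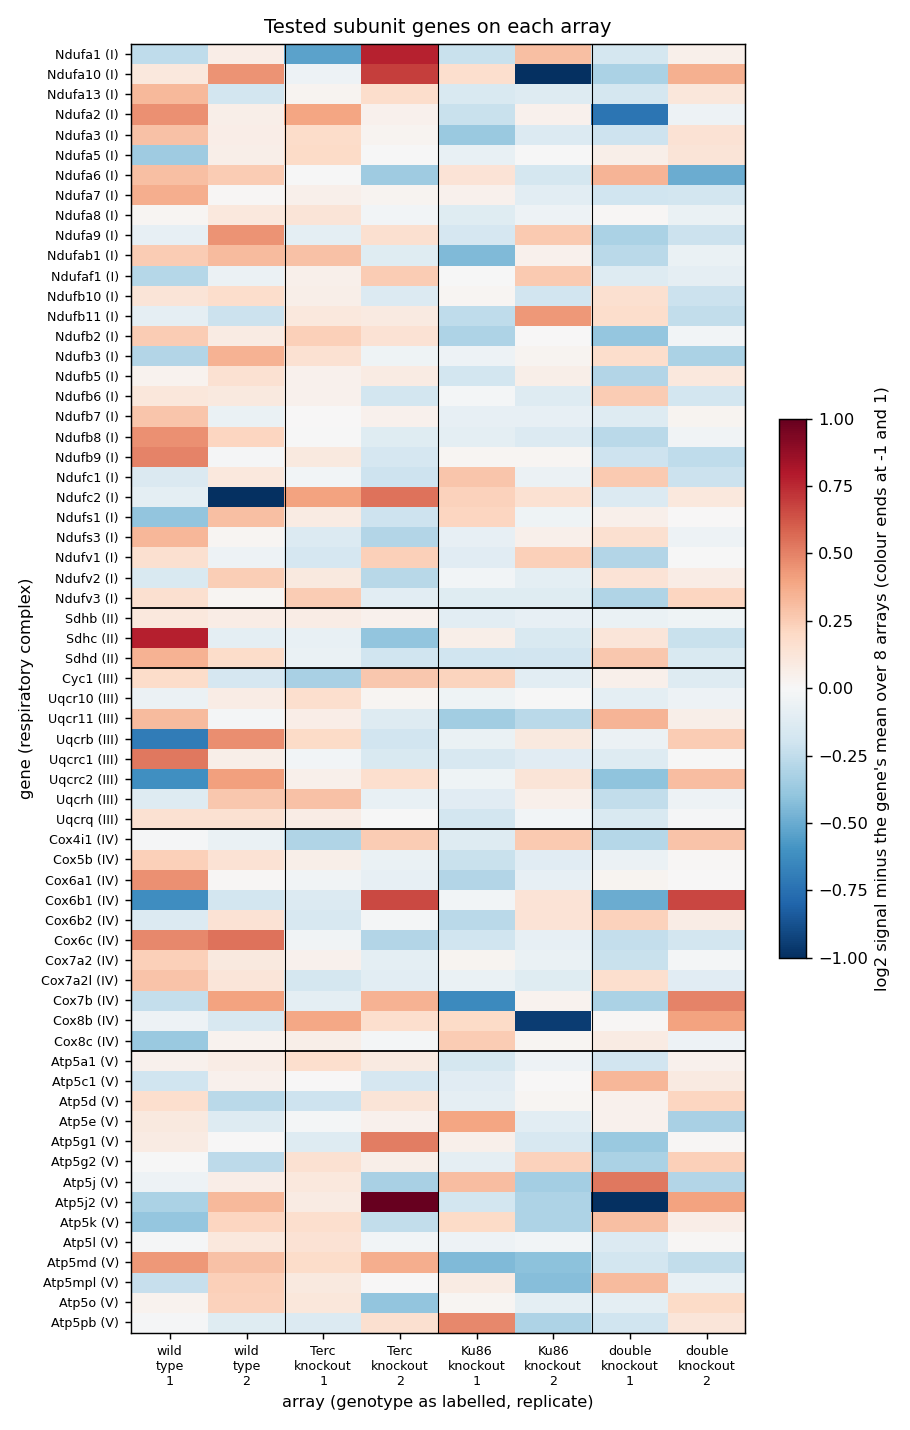
Log2 signal minus the gene's mean over 8 arrays for the 64 tested members (rows, with their complex) on the 8 arrays (columns, by labelled genotype and replicate); red is above and blue below the gene's mean, and the colours end at -1 and 1. Some genotypes lie apart in the rows of Cox6c, Atp5md and Ndufb8, which have the largest F of their complexes, though no member was called. The rows of Ndufa10, Ndufc2, Atp5j2 and Cox8b vary as much between the 2 arrays of a genotype as between genotypes.

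Complex I, which oxidises NADH and starts the chain, had 28 tested members with medians of -0.03 in Terc knockout, -0.18 in Ku86 knockout and -0.14 in double knockout. Fitted differences below 0 numbered 19, 20 and 20 of 28, and after quantile normalization 13, 21 and 21, with a median of 0.01 in Terc knockout. The median of Terc knockout was -0.12 without Terc knockout replicate 1 and -0.07 without wild type replicate 2. The catalytic arm carries the flavin and iron-sulfur subunits. Ndufv1, which binds NADH, gave signals of 3290.4 and 2839.7 in wild type, 2621 and 3466 in Terc knockout, 2711 and 3459 in Ku86 knockout, and 2397 and 2926 in double knockout, with no separation of any genotype and fitted differences of -0.02 (Terc knockout), 0.00 (Ku86 knockout) and -0.21 (double knockout). Ndufv2 ranged from 2075 to 2979.7, with differences of -0.14 (Terc knockout), -0.11 (Ku86 knockout) and 0.06 (double knockout), and Ndufs1, the largest iron-sulfur subunit, from 593 to 964, with -0.02 (Terc knockout), 0.13 (Ku86 knockout) and 0.07 (double knockout). On the brightest probe sets of these 3 genes the genotypes overlapped in every comparison with wild type. A dimmer probe set of Ndufv2 was higher in Ku86 knockout (204.5 and 223.4) than in wild type (189.3 and 201.9), by 0.13 ± 0.31. Ndufs3, a core subunit of the connecting module, gave 1633 and 1313 in wild type, 1177 and 1057 in Terc knockout, 1225 and 1343 in Ku86 knockout, and 1452 and 1253 in double knockout. Both Terc knockout arrays were below both wild type arrays, with a log2 difference of -0.39 ± 0.19 (SE; limma adjusted p = 0.672) that was -0.24 within scan day 2, and the differences in Ku86 knockout and double knockout were -0.19 and -0.12.

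Among the accessory subunits, Ndufb8, which sits in the membrane arm, had the largest F of the complex. Its signals were 2418 and 2053 in wild type, 1756 and 1618 in Terc knockout, 1648 and 1602 in Ku86 knockout, and 1460.5 and 1723 in double knockout. All 6 knockout arrays were below both wild type arrays, and wild type replicate 1 was the highest. The log2 differences were -0.40, -0.46 and -0.49 (SE 0.18), which is 1.32-fold, 1.37-fold and 1.40-fold lower, with limma adjusted p of 0.672, 0.802 and 0.488. Within scan day 2 they were -0.28, -0.36 and -0.25. Ndufa2, a small subunit of the matrix arm, gave 1639 and 1245 in wild type, 1571 and 1235 in Terc knockout, 1025 and 1235 in Ku86 knockout, and 722 and 1157 in double knockout. The 4 arrays labelled as lacking Ku86 were the lowest 4, though the highest of them, 1235.1, nearly met the lowest of the others, 1235.4. Its difference in double knockout was -0.64 ± 0.25 (adjusted p = 0.498). Within scan day 2, which leaves out the low pooled sample and the high first wild type array, it was -0.11. Ndufb2 separated the arrays in the same way, with 2290.3 and 2041 in wild type, 2264 and 2124 in Terc knockout, 1557 and 1931 in Ku86 knockout, and 1468 and 1886 in double knockout, and an averaged effect of Ku86 loss of -0.36 ± 0.14 (adjusted p = 0.9). Its lowest values, 1468 and 1557, came from the arrays of scan day 1. A further probe set of Ndufb2 gave 1548 to 1796 on the arrays with intact Ku86 and 1480.4 to 1626 on those without, which overlap.

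A few members of complex I read higher on knockout arrays, though none was called. Ndufc2, a membrane-arm subunit, gave 58.7 and 27.1 in wild type, 82.9 and 91.5 in Terc knockout, 73.6 and 69.7 in Ku86 knockout, and 57.1 and 67.6 in double knockout. Wild type replicate 2 stood apart at 27.1, and both single knockouts lay above both wild type arrays. The differences were 1.13 (Terc knockout), 0.84 (Ku86 knockout) and 0.64 (double knockout) with an SE of 0.45 and limma adjusted p of 0.672, 0.802 and 0.766, at signals close to the filter of 38.1. The assembly factor Ndufaf1 gave 144 and 169 in wild type, 182 and 209.6 in Terc knockout, 175 and 211 in Ku86 knockout, and 161 and 165 in double knockout, with differences of 0.32 (Terc knockout), 0.30 (Ku86 knockout) and 0.06 (double knockout) (SE 0.26); the first was -0.01 with each array's median set equal. Ndufa10 had the lowest fitted value of the whole group in Ku86 knockout, -0.89 ± 0.48, which came from a single array: the pair read 126 and 42.5. Ndufa12, Ndufs4 and the assembly factor Ndufaf4 did not pass the filter, with signals of 7.9 to 24.8, 4.5 to 19.6 and 11.9 to 55.7, and were not tested.

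Complex II is succinate dehydrogenase, shared with the citric acid cycle. Its flavoprotein Sdha did not pass the filter, with signals of 16.9 to 47.1. The 3 tested members had fitted differences below 0 in every comparison with wild type, with medians of -0.40, -0.39 and -0.21. These rested in large part on wild type replicate 1: without it they were -0.14, -0.17 and -0.13, and 3, 2 and 2 of 3 members were below 0. The last median was -0.42 without double knockout replicate 1. The iron-sulfur subunit Sdhb was the steadiest of all members, with 1220.3 and 1193 in wild type, 1189 and 1166 in Terc knockout, 1054 and 1070.1 in Ku86 knockout, and 1078 and 1096 in double knockout. Each genotype pair lay apart from the wild type pair, and the 4 arrays labelled as lacking Ku86 were the lowest 4, yet the differences were small, at -0.04 (Terc knockout), -0.18 (Ku86 knockout) and -0.15 (double knockout) (SE 0.17, limma adjusted p 0.964, 0.828 and 0.877). After quantile normalization the difference of Sdhb in Terc knockout turned to 0.10. The membrane anchor Sdhd had the largest F of the complex, with 842 and 754 in wild type, 634 and 578 in Terc knockout, 578 and 579 in Ku86 knockout, and 800.2 and 596 in double knockout. It was below wild type in both single knockouts (-0.40 and -0.46, SE 0.21), while the double knockout pair overlapped wild type. The other anchor, Sdhc, gave 1458 and 796 in wild type, 809 and 648 in Terc knockout, 887 and 766 in Ku86 knockout, and 925 and 729.7 in double knockout. Here wild type replicate 1 alone stood high, and the genotypes otherwise overlapped. The differences of Sdhc, -0.57 (Terc knockout), -0.39 (Ku86 knockout) and -0.39 (double knockout) with an SE of 0.28, were -0.14, -0.05 and -0.13 within scan day 2.

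Complex III, the cytochrome bc1 complex, had 8 of 8 members tested and medians of 0.00, -0.07 and -0.06, which quantile normalization turned to 0.125, 0.02 and 0.04. Single arrays moved them as far the other way: without wild type replicate 1 they were -0.13, -0.27 and -0.19, without Terc knockout replicate 1 the first was -0.11, without Ku86 knockout replicate 2 the second was -0.12, and the third was -0.11 without double knockout replicate 1 and -0.20 without its replicate 2. Without wild type replicate 2 the second was -0.04 and the first 0.02, and without Terc knockout replicate 2 the first was 0.03. Uqcrc1, a core protein of the matrix side, had its largest F, with 4561 and 3286 in wild type, 3112 and 2841 in Terc knockout, 2832 and 2922 in Ku86 knockout, and 2900.1 and 3151 in double knockout. All 6 knockout arrays lay within 2832 to 3151 and below both wild type arrays, and wild type replicate 1 stood well above wild type replicate 2. Its log2 differences were -0.38 (Terc knockout), -0.43 (Ku86 knockout) and -0.36 (double knockout), with an SE of 0.18 and adjusted p of 0.672, 0.802 and 0.637 in limma. Within scan day 2, without the high first wild type array, they were -0.14, -0.17 and -0.06. The second core protein, Uqcrc2, gave 483 and 978 in wild type, 762 and 826 in Terc knockout, 715 and 804 in Ku86 knockout, and 557 and 912 in double knockout, where wild type replicate 1 was the lowest array, so the 2 core proteins took opposite sides on that array. Cyc1, which carries the haem that reduces cytochrome c, ranged from 1641 to 2464 with overlap in every comparison. A further probe set of Cyc1 ran from 779.4 in Ku86 knockout replicate 1 to 2075 in wild type replicate 1. The small subunit Uqcrq gave 5762 and 5740.2 in wild type, 5436 and 5169 in Terc knockout, 4552 and 5062 in Ku86 knockout, and 4665 and 5116 in double knockout. Every knockout array was below both wild type arrays, and the arrays labelled as lacking Ku86 were the lowest 4, with differences of -0.12 (Terc knockout), -0.26 (Ku86 knockout) and -0.24 (double knockout) and an SE of 0.15. The lowest readings of Uqcrq, 4552 and 4665, were those of scan day 1. For Uqcr11 the fitted value in Ku86 knockout was -0.46 ± 0.23, against 0.05 in double knockout and -0.18 in Terc knockout. The Rieske protein gene Uqcrfs1 was not analysed here.

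**Figure D3:**
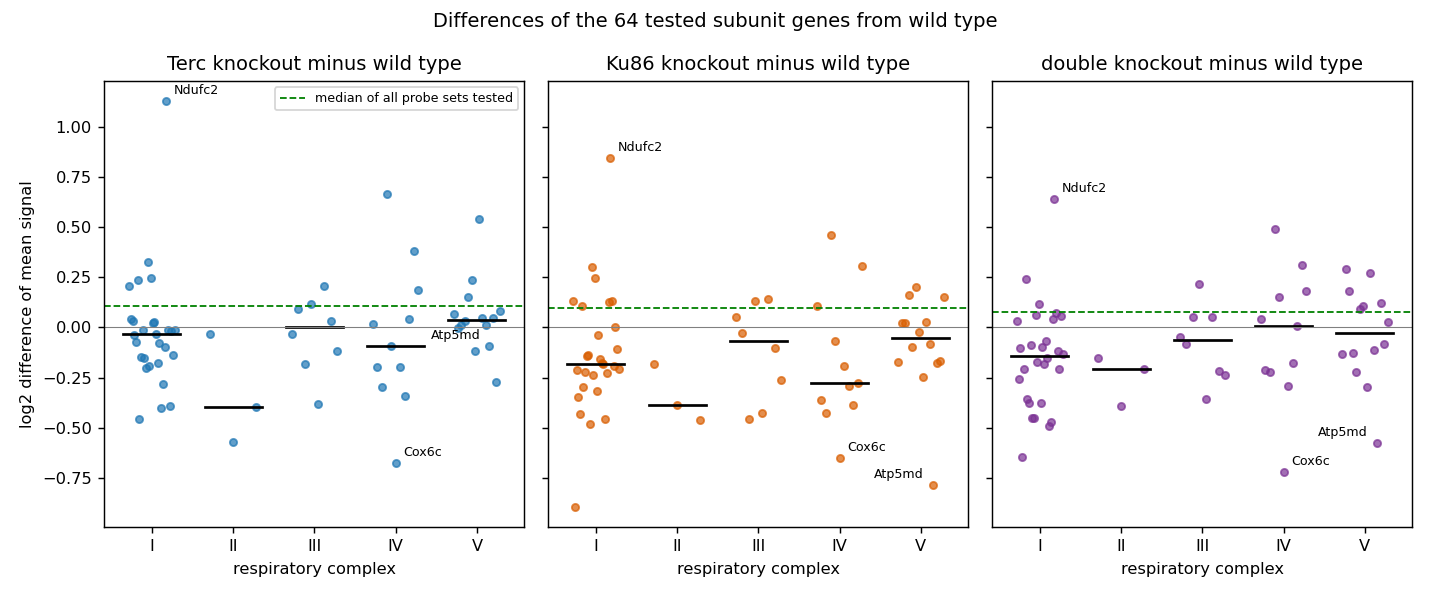
Fitted log2 difference from wild type of each of the 64 tested members (points), by complex, for each labelled knockout genotype; black bars are the median of a complex and the dashed green line is the median of all 7282 tested probe sets. Cox6c lies near -0.7 in every panel, Atp5md is low at -0.79 and -0.58 in the panels labelled Ku86 and double knockout and at -0.09 in Terc knockout, and no point passed the test.

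Complex IV, cytochrome c oxidase, held the member with the largest F of the whole group. Cox6c, a small accessory subunit of its membrane part, gave 4446 and 4643 in wild type, 3112 and 2603 in Terc knockout, 2775 and 3016 in Ku86 knockout, and 2706 and 2809 in double knockout. The wild type arrays were the 2 highest, and the 6 knockout arrays lay together between 2603 and 3112. Mean signals were 4545 ± 139 in wild type, 2857 ± 360 in Terc knockout, 2896 ± 170 in Ku86 knockout and 2758 ± 72.8 in double knockout (SD, n = 2 each). The log2 differences were -0.68, -0.65 and -0.72 (SE 0.16), 1.60-fold, 1.57-fold and 1.65-fold lower, with 95% intervals of -1.03 to -0.32, -1.0 to -0.30 and -1.07 to -0.37. Unadjusted p-values were 0.00133, 0.00172 and 0.000811 in limma, and 0.617, 0.501 and 0.257 after adjustment, so it was not called. The arrays of the single knockouts overlapped those of the double knockout, and the interaction, which is the double knockout's difference minus the sum of the single ones, was 0.61 ± 0.23 (adjusted p = 0.875). Within scan day 2 the differences were -0.71, -0.62 and -0.73. A dimmer probe set of Cox6c, at 23.2 to 64.2, gave 0.19, 0.10 and -0.74, with overlap in the single knockouts, and a further one was at or near the floor.

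The subunits closest to the catalytic core of complex IV, which is itself encoded by mitochondrial DNA, were Cox4i1, Cox5a and Cox5b. Cox5b gave 2235 and 2088 in wild type, 1965 and 1808 in Terc knockout, 1620.0 and 1747 in Ku86 knockout, and 1819 and 1907 in double knockout. All 6 knockout arrays were below both wild type arrays, with differences of -0.20 (Terc knockout), -0.36 (Ku86 knockout) and -0.21 (double knockout) and an SE of 0.17 (adjusted p 0.742, 0.802 and 0.787 in limma), which were -0.15, -0.26 and -0.13 within scan day 2. Cox4i1 gave 204 and 196 in wild type, 167 and 245 in Terc knockout, 188 and 246 in Ku86 knockout, and 169 and 250.4 in double knockout, in which each knockout pair spanned the wild type pair. A dimmer probe set of Cox4i1 was higher in Ku86 knockout (85.3 and 109.3) than in wild type (73.4 and 67.5), with overlap in the other knockouts. Cox5a did not pass the filter, with signals of 7.9 to 47.7.

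Several subunits of complex IV come in forms that differ between tissues. Cox6b2, the testis form of Cox6b, gave 6431 and 7819.7 in wild type, 6334 and 6997 in Terc knockout, 5883 and 7777 in Ku86 knockout, and 8304 and 7468 in double knockout. Its arrays overlapped in every comparison, with differences of -0.09 (Terc knockout), -0.07 (Ku86 knockout) and 0.15 (double knockout) and an SE of 0.17, so that the 95% interval for the double knockout was -0.23 to 0.53. Another tested probe set of Cox6b2 was higher on both Ku86 knockout arrays (946.8 and 1019) than in wild type (729 and 669.6), by 0.49 ± 0.61. On it double knockout replicate 1, the pooled sample, read 4206 against 603.3 to 1019 on the other 7 arrays. Cox8c, the testis form of Cox8, gave 5299.9 and 7052 in wild type, 7154 and 6767 in Terc knockout, 8208 and 6957 in Ku86 knockout, and 7272 and 6624 in double knockout, with 0.19 (Terc knockout), 0.31 (Ku86 knockout) and 0.18 (double knockout) and 95% intervals of -0.19 to 0.56, -0.07 to 0.68 and -0.19 to 0.56. On their brightest probe sets, neither testis form separated any genotype from wild type, and the sign of their differences turned with the scaling in all but the Ku86 knockout for Cox8c. A dimmer probe set of Cox8c was higher in Terc knockout (291 and 368) than in wild type (213 and 289.5), by 0.40. The body-wide form Cox6b1 gave 81.9 and 111 in wild type, 115 and 199.6 in Terc knockout, 124 and 139 in Ku86 knockout, and 89.7 and 200.5 in double knockout, and both single knockouts lay above both wild type arrays (0.67 and 0.46, SE 0.41). Cox8b, the heart and muscle form, gave 106 and 98.6 in wild type, 144 and 123 in Terc knockout, 125 and 57.0 in Ku86 knockout, and 111 and 145 in double knockout. Both arrays of Terc knockout and both of double knockout lay above both wild type arrays, and Ku86 knockout replicate 2 stood apart from the rest. Cox8a, Cox6a2 and Cox7a1, of which Cox6a2 and Cox7a1 are the heart and muscle forms, did not pass the filter, with signals of 3.1 to 23.9, 13.7 to 23.5 and 1.9 to 23.1.

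Of the liver-type forms, Cox6a1 gave 4149 and 3047 in wild type, 2939 and 2853 in Terc knockout, 2460.1 and 2843 in Ku86 knockout, and 3072 and 3018 in double knockout. Both single knockouts lay below wild type, at -0.30 and -0.43 (SE 0.18), while the double knockout overlapped wild type at -0.22. Scan day 2 alone gave -0.07, -0.10 and -0.01. Cox7a2 gave 6236 and 5653 in wild type, 5449 and 4936 in Terc knockout, 5367 and 5046 in Ku86 knockout, and 4515 and 5196 in double knockout, with every knockout array below both wild type arrays and differences of -0.20 (Terc knockout), -0.19 (Ku86 knockout) and -0.29 (double knockout) (SE 0.15). On the arrays of scan day 2 these were -0.12, -0.16 and -0.12. Its relative Cox7a2l, the supercomplex factor, ranged from 491 to 675, with -0.34 (Terc knockout), -0.29 (Ku86 knockout) and -0.18 (double knockout). Cox7b, at 30.3 to 66.5, lay near the filter and did not separate the genotypes. Complex IV as a whole had medians of -0.09, -0.27 and 0.01, with 6, 8 and 5 of 11 tested members below 0; quantile normalization turned the median of the double knockout to -0.10. Without double knockout replicate 2 that median was -0.21, with 8 of 11 below 0, without replicate 1 it was 0.07, and leaving out wild type replicate 1 gave -0.02. The Terc knockout median was -0.02 without Terc knockout replicate 1, -0.16 without its replicate 2 and -0.01 without wild type replicate 2. Cox4i2 and Cox7b2 were not analysed here.

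**Figure D4:**
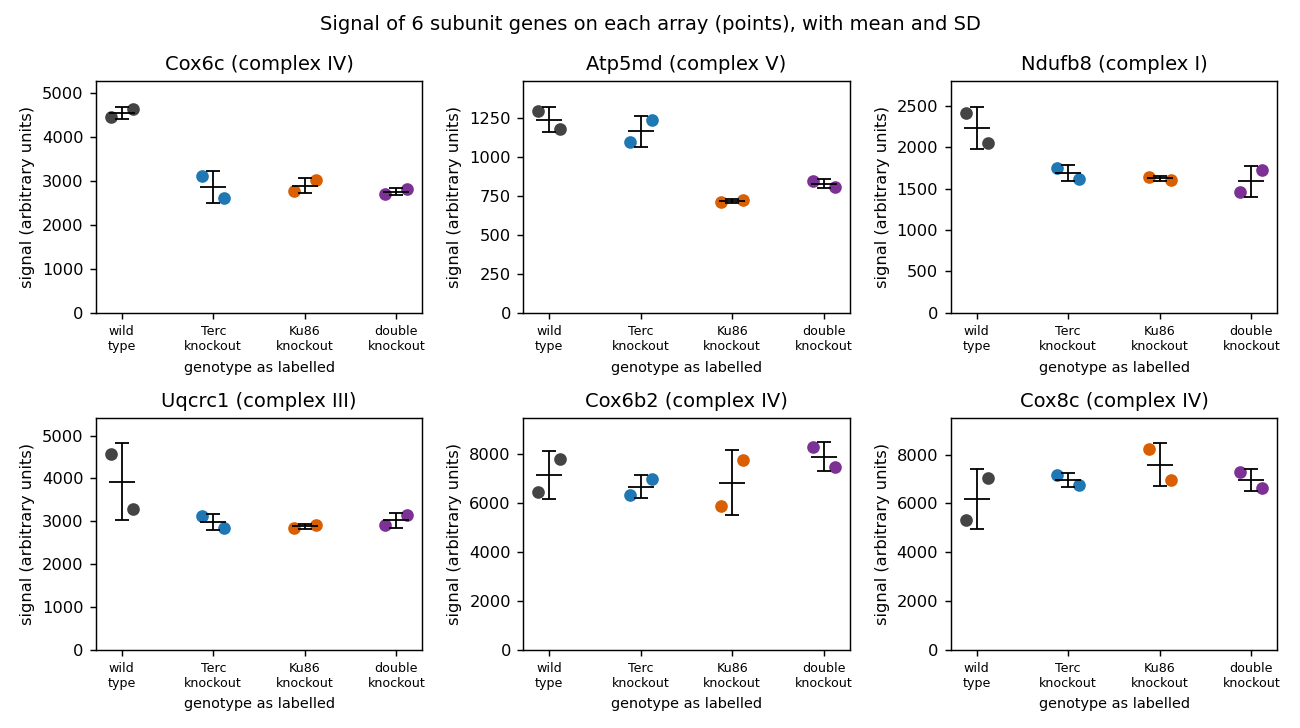
Signal of 6 members on each array (points; linear scale from 0, arbitrary units), by labelled genotype, with the mean and SD of the 2 arrays. Cox6c is higher in wild type than in every knockout array, Atp5md is lower on the 4 arrays labelled as lacking Ku86, Ndufb8 and Uqcrc1 are highest in wild type, and the testis forms Cox6b2 and Cox8c overlap.

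Complex V, the ATP synthase, had 14 of 14 members tested and medians of 0.04, -0.05 and -0.03, which were -0.30, -0.29 and -0.29 with each array's median set equal. The Ku86 knockout median was -0.21 without Ku86 knockout replicate 1, -0.01 without its replicate 2, -0.12 without wild type replicate 1 and 0.04 without wild type replicate 2. That of the double knockout was 0.02 without its replicate 1, -0.16 without its replicate 2 and -0.07 without wild type replicate 1. The Terc knockout median was 0.01 without wild type replicate 1 or Terc knockout replicate 1, and 0.08 without the other array of either pair. The catalytic head is built from the alpha, beta and gamma subunits. Atp5a1, the alpha subunit, gave 2295 and 2346 in wild type, 2501 and 2369 in Terc knockout, 1967 and 2154 in Ku86 knockout, and 1945 and 2296 in double knockout. Terc knockout lay above wild type and Ku86 knockout below it on the authors' scale, by 0.07 and -0.17, beside an SE of 0.17, and the first was -0.26 with each array's median set equal. Atp5c1, the gamma subunit, gave 1084 and 1287 in wild type, 1249 and 1113 in Terc knockout, 1155 and 1248 in Ku86 knockout, and 1573 and 1330.3 in double knockout, with the double knockout above wild type by 0.29 ± 0.19 (limma adjusted p = 0.732); its second probe set gave -0.02. Atp5o, part of the stalk that holds the head in place, ranged from 779 to 1201, with -0.27 (Terc knockout), -0.17 (Ku86 knockout) and -0.08 (double knockout). The genes of the rotor ring, Atp5g1 and Atp5g2, gave 84.8 to 157 and 109 to 159.9. On these brightest probe sets neither separated the genotypes beyond Atp5g2 in Terc knockout, at 0.23 ± 0.30. A dimmer probe set of Atp5g1 was higher in Ku86 knockout (55 and 65.5) and double knockout (58 and 54.8) than in wild type (44.4 and 48.3), with overlap in Terc knockout. A dim probe set of Atp5g2 that was not tested read higher than wild type in every knockout. Atp5b and Atp5g3 were not analysed here.

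Atp5md, a small membrane subunit linked to the pairing of ATP synthases, had the largest F of the complex and the second largest of the group. Its signals were 1297 and 1181 in wild type, 1093 and 1235 in Terc knockout, 709.7 and 726 in Ku86 knockout, and 848 and 810.2 in double knockout. All 4 arrays labelled as lacking Ku86, at 709.7 to 848.5, were below the 4 others, at 1093 to 1297, and Terc knockout overlapped wild type. Mean signals were 1239 ± 81.8 in wild type, 1164 ± 101 in Terc knockout, 717.7 ± 11.3 in Ku86 knockout and 829 ± 27.1 in double knockout (SD, n = 2 each). The log2 difference from wild type was -0.09 in Terc knockout, -0.79 in Ku86 knockout and -0.58 in double knockout (SE 0.18); quantile normalization turned the first to 0.06. Averaged over both Terc genotypes, the effect of Ku86 loss was -0.64 ± 0.13, 1.55-fold lower, with a 95% interval of -0.92 to -0.35, an unadjusted p of 0.000377 and a limma adjusted p of 0.353. It was -0.61 within scan day 2, -0.60 after quantile normalization and -0.72 with each array's median set equal. The interaction was 0.30 ± 0.26 (adjusted p = 0.885).

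A gene's other probe sets give a check on these values. Of the 72 members, 21 had more than 1 probe set, and 15 of the 28 further probe sets, in 12 genes, passed the filter. Their sign matched that of the brightest probe set in 10 of 15 cases in Terc knockout, 5 of 15 in Ku86 knockout and 8 of 15 in double knockout. In Ku86 knockout most further probe sets, which are the dimmer ones, had the opposite sign. Atp5md, Ndufb8, Uqcrc1 and Uqcrq each had a single probe set. Probe sets whose names end in _f_at, _r_at, _s_at or _i_at, among them those of Cox6c and Atp5md, may also bind transcripts of related genes.

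Other genes of the pathway were read from 4 lists: further chain, carrier and assembly genes, the citric acid cycle with pyruvate dehydrogenase, inner membrane carriers and porins, and regulators of mitochondrial genes. Of their 59 measured genes 49 were tested and 0 were called in any comparison with wild type; at an unadjusted p under 0.05 the shares were 6.12% in Terc knockout, 0% in Ku86 knockout and 8.16% in double knockout. Their medians were -0.02, 0.06 and 0.07, beside 0.11, 0.10 and 0.08 over all probe sets. Cytochrome c, the mobile carrier between complexes III and IV, has a somatic gene, Cycs, and a testis gene, Cyct. Cycs gave 32.8 and 36.5 in wild type, 74.5 and 65.7 in Terc knockout, 55.2 and 67.7 in Ku86 knockout, and 87.1 and 70.5 in double knockout. All 6 knockout arrays were above both wild type arrays, with differences of 1.02 (Terc knockout), 0.82 (Ku86 knockout) and 1.18 (double knockout), an SE of 0.41 and adjusted p of 0.672, 0.802 and 0.469 in limma. Both wild type arrays of Cycs lay under the filter level of 38.1, so it passed the filter through the knockout arrays and had to differ, and its differences support nothing further. Cyct gave 466 and 657 in wild type, 534 and 468 in Terc knockout, 704 and 520.3 in Ku86 knockout, and 547 and 451 in double knockout, with overlap throughout.

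Of these 49 tested genes, both knockout arrays were above both wild type arrays for 7 in Terc knockout, 10 in Ku86 knockout and 10 in double knockout (14.3%, 20.4% and 20.4%, against 25.5%, 24.4% and 23.2% of all probe sets). They were below for 8, 8 and 5 (16.3%, 16.3% and 10.2%, against 12.2%, 13.7% and 13.2%). Apart from Cycs, those with the largest moderated t in each direction were the following. In Terc knockout, pyruvate carboxylase (Pcx) gave 1.25 ± 0.56, the ubiquinone synthesis gene Coq9 -0.79 ± 0.34 and the citrate carrier Slc25a1 -0.44 ± 0.22. Coq9 rested on wild type replicate 1, at 486 against 179.0 to 228.3 on the other 7 arrays. In Ku86 knockout, the pyruvate dehydrogenase kinase Pdk4 gave 0.93 ± 0.52, the copper chaperone Cox17 -0.40 ± 0.20 and Slc25a1 -0.41 ± 0.22. In double knockout, Lrpprc, which stabilises mitochondrial mRNA, gave 0.54 ± 0.23, the dicarboxylate carrier Slc25a10 -0.53 ± 0.24 and the nuclear receptor Esrra -0.30 ± 0.23. The lowest limma adjusted p among these 8 genes was 0.549, for Lrpprc in double knockout. Pcx passed the filter through the knockout arrays, since both wild type arrays, at 32.4 and 34.8, lay under 38.1.

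Summed markers of other testis cell types read differently between genotypes alongside the members, though no tested marker was called in any comparison. The summed signal of 16 Sertoli cell markers was 2847 to 2931 in wild type, 3787 to 4331 in Terc knockout, 3165 to 4624 in Ku86 knockout and 5193 to 6207 in double knockout. Their median log2 differences were 0.56, 0.41 and 0.80, and 15, 13 and 14 of 16 were above 0, against 61.1%, 59.7% and 58.7% of all tested probe sets. Of 17 peritubular, vascular and matrix markers 14 were tested, with medians of 0.52, 0.41 and 0.85. All 17 summed to 1966 to 2136, 2822 to 3193, 2494 to 3151 and 3352 to 3847 in the same order of genotypes. The 8 spermatogonia markers summed to 757.5 to 764, 977 to 1028, 811 to 1015 and 1156 to 1445, with medians of 0.55, 0.31 and 0.87 over the 5 tested. The 8 macrophage markers, of which 4 were tested, summed to 506 to 521, 580.5 to 612, 541 to 586 and 554 to 594. The 4 tested macrophage markers had medians of 0.13, 0.02 and 0.02, beside 0.11, 0.10 and 0.08 over all probe sets tested. Sums of these 4 lists did not overlap between any knockout and wild type. The peritubular, spermatogonia and macrophage sums include markers too dim to test. The 7 Leydig cell markers summed to 829.8 to 1006, 991 to 1544, 794 to 1182 and 1040 to 1800. Only the double knockout sum lay apart from wild type, above it. The 9 spermatocyte markers summed to 27841 to 28318, 23294 to 28749, 24913 to 27155 and 24793 to 28274. Here only the Ku86 knockout sum lay apart, below wild type. Medians were 0.37, 0.08 and 0.51 over the 5 Leydig cell markers tested. Over the 7 spermatocyte markers tested they were -0.15, -0.04 and -0.01. The 3 erythroid markers summed to 2373 to 3123 in wild type, 1636 to 3442 in Terc knockout, 1018 to 2590 in Ku86 knockout and 1402 to 1497 in double knockout. Only the double knockout sum lay apart from wild type, and it was lower. The 16 spermatid markers summed to 91595 to 102660, 92977 to 104821, 95257 to 97232 and 89500 to 95171. Their medians were -0.01, -0.01 and -0.07, beside 0.11, 0.10 and 0.08 over all probe sets tested. Below 0 were 8, 9 and 12 of 16, against 38.9%, 40.3% and 41.3% of all. Medians of the spermatocyte and spermatid lists, as of the members, lay below those of all probe sets in each knockout. Fewer cells of a type and less RNA per cell cannot be told apart in these samples. The 6 muscle markers summed to 62.1 to 154 over all arrays, and 2 to 4 of them were at or under the floor on every array of a genotype. The part of these cell types in the members' values was not tested.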

How the data were processed

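The 8 arrays hold total RNA of testis, with 2 arrays per genotype. The deposited values are linear intensities, 1 for each probe set. The authors had scaled the arrays to a common level: leaving out 2% of the probe sets at either end, the means were 200.127 to 200.157. The software and settings behind them are not given in the sources used here, and the precision of every value is limited by the number of arrays. Per the scanner's text records, 15 micrograms of cRNA were hybridised per array.

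Of 12488 probe sets, 10855 had 1 gene symbol, 396 several and 1237 were listed with none. Deposited values under 11.8, the pooled 20th percentile, were raised to that level before taking log2. The 66 controls were left out, and 5140 probe sets whose mean log2 value was under that of 38.1, the pooled 40th percentile, were not tested. For the remaining 7282, R 4.3.3 with limma 3.58.1 gave the fit (lmFit and eBayes, trend on), with 1 mean per genotype, all 8 arrays and 4 residual degrees of freedom. Tests were two-sided, and p-values were adjusted by Benjamini-Hochberg over all tested probe sets of a contrast. The 6 contrasts were each knockout genotype against wild type, the averaged effect of each loss and the interaction, with a moderated F-test beside them. Fold changes and differences come from the floored log2 scale and understate those of dim genes.

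The members, the gene lists and the rules were chosen with earlier results of these data known. Members named with values were the core subunits, the subunits with tissue forms, up to 4 per direction with separated arrays and the largest moderated t in each comparison with wild type, the largest F of each complex, and Cox6c. Of the other pathway genes, up to 2 per direction were named in the same way. Ndufa10, Ndufb2, Uqcrq, Uqcr11 and Cyct, and the 3 promoters, were picked after their values were seen. Other normalizations, floors, filters, a fit without the trend, blocks for replicate number and scan day, scan day 2 alone, and leaving out each array were tried. The fit was tested on simulated data. Figures were drawn with Python 3.11.15 and matplotlib 3.10.9. RefSeq promoters (GRCm38.p6) were matched by gene ID.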

Additional observations from a re-analysis of the deposited data

How the results depend on the processing

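No member was called under any alternative tried, and the lowest adjusted p of a member in limma was 0.257 as reported and 0.114 over the alternatives. Counts of called probe sets, in the order Terc knockout, Ku86 knockout, double knockout, averaged Terc effect, averaged Ku86 effect, interaction and F-test, were 2, 3, 2, 1, 0, 0 and 0. They became 0, 0, 0 for the first 3 with quantile normalization; 1, 1, 1 for these and 2 for the F-test with median centring; 4 (double knockout), 8, 8, 9 and 9 for a floor set at percentile 40 and 0 in Terc knockout for percentile 5; 9 (Terc knockout), 1 (double knockout), 4, 2, 8 and 11 with no filter; 0 (Terc knockout), 1 (averaged Ku86 effect) and 2 (F-test) with the filter at the 60th percentile; and 0, 0, 0 and 0 for the first 4 without the variance trend. Scan day as a block gave 1, 0, 0 and 0 for the first 4, and scan day 2 alone gave 17, 15, 30, 8, 20, 9 and 43; that last fit has 5 arrays and 1 residual degree of freedom, and its lone arrays are assumed to vary like the Terc knockout pair. With the replicate number as a block the counts were 0 in Terc knockout, 0 in Ku86 knockout and 0 in double knockout, and 0 members were called. Same-numbered arrays of different genotypes were compared by the correlation of their deviations from the genotype means, which lay between 0.013 and 0.25 over the 6 pairs of genotypes. Not every pair was over 0.1, so the numbers were not taken to pair the arrays. Leaving out each array in turn gave 0 to 4, 0 to 3, 0 to 4, 0 to 3, 0 to 1, 0 to 1 and 0 to 7.

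The members' median difference changed sign with quantile normalization in Terc knockout, from -0.0177 to 0.0214, and for the averaged Terc effect, from -0.0131 to 0.0235. It moved to -0.0823 (Ku86 knockout), -0.0666 (double knockout) and 0.00324 (interaction) under the same setting, to -0.351, -0.404, -0.381, -0.196, -0.186 and 0.373 over the 6 contrasts with median centring, and to -0.00687 (Terc knockout), -0.123 (Ku86 knockout) and 0.0217 (interaction) for the floor at percentile 40. Leaving out each array in turn gave -0.0744 to -0.0177 in Terc knockout, -0.187 to -0.113 in Ku86 knockout, -0.174 to -0.0774 in double knockout, -0.0242 to 0.0144 for the averaged Terc effect, -0.133 to -0.0748 for the averaged Ku86 effect and 0.0286 to 0.12 for the interaction. The cause of these changes was not tested. Of 1800 values of named members under alternatives, 1579 moved by less than 1 SE, 148 changed sign and 0 were called. Several of these alternatives cannot move a fitted difference from wild type. Among them are the fit without the trend, the replicate block, other filters, and leaving out an array of a genotype outside the comparison. The count of 1579 includes such values and does not measure stability. Signals near the floor of 11.8 limit what can be said of the 8 members that were not tested.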
